A study of Homo sapiens with 6 samples.

Results

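Axon guidance ligands and receptors are the secreted or membrane-bound cues, and the cell surface proteins that read them, which steer growing axons and are also used by cells outside the nervous system to attract, repel or separate from one another. The 69 genes described here were taken by symbol from the 16798 genes of the table: DRAXIN, DCC and the genes named as semaphorins (classes 3 to 7), plexins, neuropilins, Eph receptors, ephrins, netrins, Slits, Robo receptors and UNC5 receptors. They comprised 36 ligands (20 semaphorins, 8 ephrins, 4 netrins, 3 Slits and draxin) and 33 receptors (14 Eph receptors, 9 plexins, 4 UNC5 receptors, 3 Robo receptors, 2 neuropilins and DCC). The family was picked because DRAXIN and PLXNB3 rose strongly in the comparison reported below, so the values of these 2 genes are a description and carry no test. Counts over the list are likewise descriptions, each given beside the share over all genes.

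Total RNA of COV434 cells was sequenced in 6 samples. The 3 control samples were untreated, and the other 3 were treated with 15 µM 4HC for 24 h. 4HC is 4-hydroxycyclophosphamide, the active metabolite of cyclophosphamide (CTX), a drug that forms DNA crosslinks, and the labels call the treated samples CTX-induced. All 6 samples are of 1 immortalized line, which the labels call granulosa cells, and the genotype tag reads WT in the controls and CTX in the treated samples.

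The samples held 16133786 to 16702316 expected counts each, and the difference between any pair of replicates was larger than sampling noise. The labels do not say whether replicates came from separate cultures, so the p-values measure only the spread between these samples. Differences were tested with edgeR's quasi-likelihood test and adjusted by Benjamini-Hochberg over 12368 genes, and a gene is called here when its adjusted p is under 0.05. Levels are given as CPM, counts scaled to the size of the library, to compare samples, and as TPM, which also corrects for transcript length, to compare genes. All 8 genes of a list of DNA damage response genes were called higher in 4HC, beside 19.2% of all genes. Among them were GDF15 (log2 fold change 2.12) and CDKN1A (1.80). Of 12 granulosa markers 10 were in the table, and FOXL2, the transcription factor that defines granulosa cells, had no count in control and a mean of 0.0367 TPM in 4HC. CYP19A1, FSHR, GATA4, NR5A1 and STAR were below 0.05 TPM in both groups, while HSD17B1 was at 22.5 TPM and AMH at 5.34 TPM in control. Few of the genes that define granulosa cells were thus detected in cells that carry this label. The neuronal markers STMN2 (142 TPM) and TUBB3 (41.8 TPM) and the stromal marker COL3A1 (85.1 TPM) were present in control cells, while DCX, ELAVL4, SNAP25, PECAM1, VWF and CDH5 were at or near 0. The summed level of the granulosa list was 24.2 to 33.3 TPM in control and 28.0 to 29.3 TPM in 4HC.

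Semaphorins signal through plexins, and the secreted class 3 members mostly need a neuropilin as a co-receptor. Netrin-1 and draxin bind DCC, netrin-1 also binds UNC5 receptors, and Slits bind Robo receptors such as ROBO1. Ephrins stay attached to the cell surface and bind Eph receptor tyrosine kinases on a neighbouring cell, with signals possible in both directions.

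DRAXIN, a secreted repulsive guidance protein that binds netrin-1 and DCC (NCBI Gene 374946, GRCh38.p13 chr1:11686544-11731853), had expected counts of 8.42, 4 and 3 in control replicates 1, 2 and 3 and of 116, 123 and 130 in 4HC replicates 1, 2 and 3. Its level was 0.493, 0.246 and 0.181 CPM in control and 7.0, 7.59 and 7.96 CPM in 4HC. Every 4HC sample lay far above every control sample, and the log2 fold change was 4.58 (n = 3 per group). It was 5.09 without control replicate 1 and 4.32 without control replicate 3. The control counts were close to the limit of 3 counts that a count of 0 allows, so the fold rests on few control counts. In 4HC 95.7% of its counts were assigned to a single transcript, against 59.4% of the few control counts. The gene overlaps MAD2L2, which was at 56.7 CPM in control and 65.8 CPM in 4HC (log2 fold change 0.21, edgeR adjusted p = 2.59e-04), and whether reads were counted by strand is not given in the sources used here. In these bulk samples a change in the share of expressing cells and a change in RNA per cell cannot be told apart.

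PLXNB3, a plexin that serves as a receptor for semaphorin 5A (NCBI Gene 5365, chrX:153764249-153779341), had 77, 66 and 87 counts in control and 483, 465 and 411 in 4HC. Its level was 4.75, 4.06 and 5.25 CPM in control and 29.2, 28.7 and 25.2 CPM in 4HC. The groups were well apart, with a log2 fold change of 2.56. The transcript table listed 1 transcript for it. Of the flanking genes, IDH3G (6.43 kb away) had a log2 fold change of 0.07 and PDZD4 (22.8 kb away) one of 0.86. SEMA5A, the ligand of PLXNB3, was at 10.0, 9.05 and 9.53 CPM in control and at 8.27, 6.66 and 9.0 CPM in 4HC and was not called (edgeR adjusted p = 0.0667).

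Promoter sequence was read for the members whose response is described most closely: 5 with a rise of at least 2-fold, and EFNB2 as the most abundant ligand that fell. Each stretch lies within the 250 bases before an annotated start and is free of annotated exons. Sequences are from RefSeq (GRCh38.p14), printed 5′ to 3′ on the strand of the gene. Capitals mark the GC box GGGCGG or its reverse complement CCGCCC, a motif bound by Sp1-type factors. DRAXIN is read from chr1:11691651-11691709 (plus strand, between an exon of MAD2L2 and a DRAXIN start). PLXNB3 is read from chrX:153763999-153764195 (plus strand), EPHA2 from chr1:16156088-16156319 (minus strand) and EFNB1 from chrX:68828771-68828996 (plus strand). SEMA3G is read from chr3:52445104-52445353 (minus strand) and EFNB2 from chr13:106535663-106535912 (minus strand).
DRAXIN: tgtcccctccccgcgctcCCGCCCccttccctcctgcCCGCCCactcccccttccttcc
PLXNB3: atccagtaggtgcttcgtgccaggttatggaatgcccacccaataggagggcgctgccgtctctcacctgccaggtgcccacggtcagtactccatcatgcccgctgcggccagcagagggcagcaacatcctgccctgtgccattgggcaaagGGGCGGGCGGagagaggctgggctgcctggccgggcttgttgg
EPHA2: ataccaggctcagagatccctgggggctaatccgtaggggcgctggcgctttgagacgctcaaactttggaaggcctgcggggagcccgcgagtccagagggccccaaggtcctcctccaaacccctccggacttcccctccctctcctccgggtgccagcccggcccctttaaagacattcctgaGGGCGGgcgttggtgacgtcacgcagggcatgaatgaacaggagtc
EFNB1: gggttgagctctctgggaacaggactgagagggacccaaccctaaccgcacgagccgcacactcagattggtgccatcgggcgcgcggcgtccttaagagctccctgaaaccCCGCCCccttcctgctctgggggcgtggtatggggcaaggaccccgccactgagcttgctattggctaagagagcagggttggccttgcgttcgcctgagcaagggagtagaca
SEMA3G: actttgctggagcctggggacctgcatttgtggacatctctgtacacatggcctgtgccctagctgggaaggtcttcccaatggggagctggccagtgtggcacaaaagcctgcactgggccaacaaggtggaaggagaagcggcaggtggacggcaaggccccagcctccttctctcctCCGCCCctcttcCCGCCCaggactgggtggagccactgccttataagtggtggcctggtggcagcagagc
EFNB2: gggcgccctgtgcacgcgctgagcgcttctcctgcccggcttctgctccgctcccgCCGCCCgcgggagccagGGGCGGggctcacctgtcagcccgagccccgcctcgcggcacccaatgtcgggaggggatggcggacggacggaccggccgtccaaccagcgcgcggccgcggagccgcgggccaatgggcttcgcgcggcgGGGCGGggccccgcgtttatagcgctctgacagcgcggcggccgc

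GC boxes were counted 2 times in DRAXIN, PLXNB3 and SEMA3G, 1 time in EPHA2 and EFNB1 and 3 times in EFNB2, and the pair in PLXNB3 overlaps. Over all members, 91 start sites of 59 genes had a promoter entry. GGGCGG on either strand was in 70.3% of these 91 windows, and in 42.7% of the 34961 promoter windows of all genes. It was in 15 of 15 windows of members that were higher in 4HC and in 13 of 19 of those that were lower. The 15 windows belong to 13 genes, among them DRAXIN and PLXNB3, which the rule used, and the 19 windows to 12 genes. Windows are thus not separate genes, and nothing is read from the difference. The windows of the members also had a higher median GC content (65.6%) than all windows (58.4%). CCAAT was in 29.7% of member windows and 32.0% of all windows, and TATAAA in 3.30% and 10.7%. CACGTG, an E-box, was in 4.40% and 6.35%, and TGANTCA, the AP-1 motif, in 1.10% and 6.54%. The p53 half-site consensus was in 6.59% of member windows and 5.57% of all windows, with 2 of 15 windows among the higher members and 1 of 19 among the lower ones. These matches are a description of letters within the windows. EFNB3, EPHA10, NRP1, NTN1, NTN3, SEMA3A, SEMA6A, SEMA6B, UNC5B and UNC5D had no entry.

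Before treatment, 42 of the 69 genes had a mean of at least 1 TPM. NTN4, a netrin of basement membranes, had the highest level, with 336, 332 and 349 TPM in control replicates 1, 2 and 3. It was followed by ROBO1, the main Slit receptor, at 201 ± 1.59 TPM (SD, n = 3), then EPHA7 at 148 ± 7.28 TPM, EPHA5 at 77.3 ± 0.881 TPM and EFNB2 at 64.6 ± 1.81 TPM. None of these 5 overlapped with the next in any control sample. Behind them SEMA3C (41.4 TPM), PLXNB2 (40.7 TPM) and SEMA3E (38.5 TPM) overlapped with one another. The plot of control levels shows that single genes carried most of the signal of some families, as NTN4 did for netrins, ROBO1 for Robo receptors and EFNB2 for ephrins. The semaphorin signal was spread over several genes, with SEMA6B at 35.8 TPM close behind SEMA3C and SEMA3E.

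**Figure D1:**
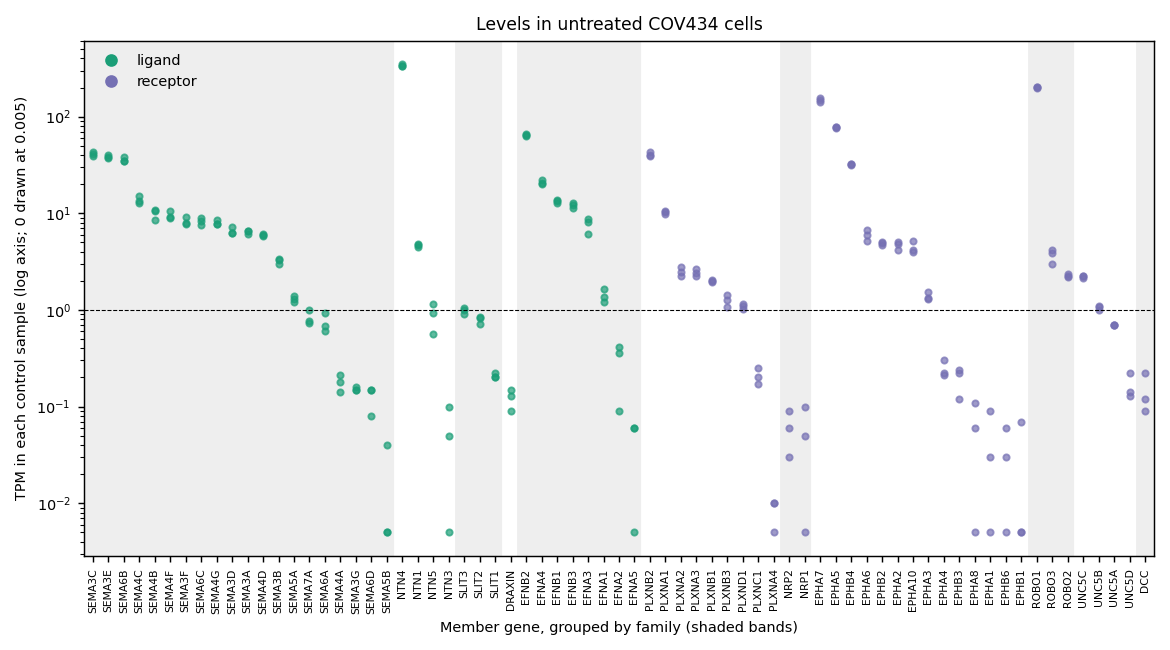
TPM of each of the 69 genes in the 3 control samples (1 point per sample, log axis, values of 0 drawn at the bottom), grouped by family and coloured by role, with a dashed line at 1 TPM. NTN4 and ROBO1 stand at the top, and both neuropilins, DRAXIN and DCC lie below 1 TPM.

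The levels of several ligands and of their best known receptors were far apart. NRP1 and NRP2, the neuropilins, were at 0 to 0.1 TPM (0 to 0.370 CPM) in all 6 samples. The neuropilin ligands SEMA3C, SEMA3D and SEMA3A were at 41.4, 6.58 and 6.44 TPM in control. DCC, which binds both netrin-1 and draxin, was at 0.493, 0.923 and 0.724 CPM in control and 0.422, 0.493 and 0.612 CPM in 4HC. NEO1, a relative of DCC named after its values were seen, was at 60.2, 61.9 and 60.6 CPM in control and 63.1, 61.6 and 70.3 CPM in 4HC (edgeR adjusted p = 0.138). SLIT1, SLIT2 and SLIT3, the ligands of ROBO1, had means of 0.207, 0.800 and 0.983 TPM in control.

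Between 4HC and control, 57 of the 69 genes had enough counts to be tested. Beside DRAXIN and PLXNB3, 13 of the other 55 were called higher and 13 lower. Over all tested genes 36.4% were called, 19.2% higher and 17.1% lower, and the family was chosen on this comparison, so nothing is read from the difference. The median log2 fold change of the 57 was -0.04, beside 0.0047 for all genes. Their median absolute log2 fold change was 0.24, beside 0.13 for all genes. Without DRAXIN and PLXNB3, which the rule used, these medians were -0.04 and 0.22. Genes were also counted by a fold change of at least 2 with an unadjusted p under 0.05. In the upward direction 7 of these 55 met both criteria (1.02% of all genes). In the downward direction 0 met them (0.129% of all genes), where DESeq2 and both limma fits also gave 0. In either direction 1.15% of all genes met them. The study states the same criteria but reports far more genes in each direction. The cause of this difference was not tested. With DRAXIN and PLXNB3, which the rule used, the upward count was 9, and it was 5 when at least 10 counts were required in every sample, 4 with limma on log2(TPM + 1) and 12 with no filter. The downward count was 1 without control replicate 3 and 2 without 4HC replicate 3. Of the 55, the groups did not overlap for 12 higher members (23.4% of all genes) and 17 lower members (21.9% of all genes). EFNA2, EPHB3 and SEMA3G are among the 7 with a 2-fold rise and among these 12. They had enough counts for the test only because of their 4HC samples. NTN5, among the 17, had enough only because of its control samples. Nothing is read from these counts.

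**Figure D2:**
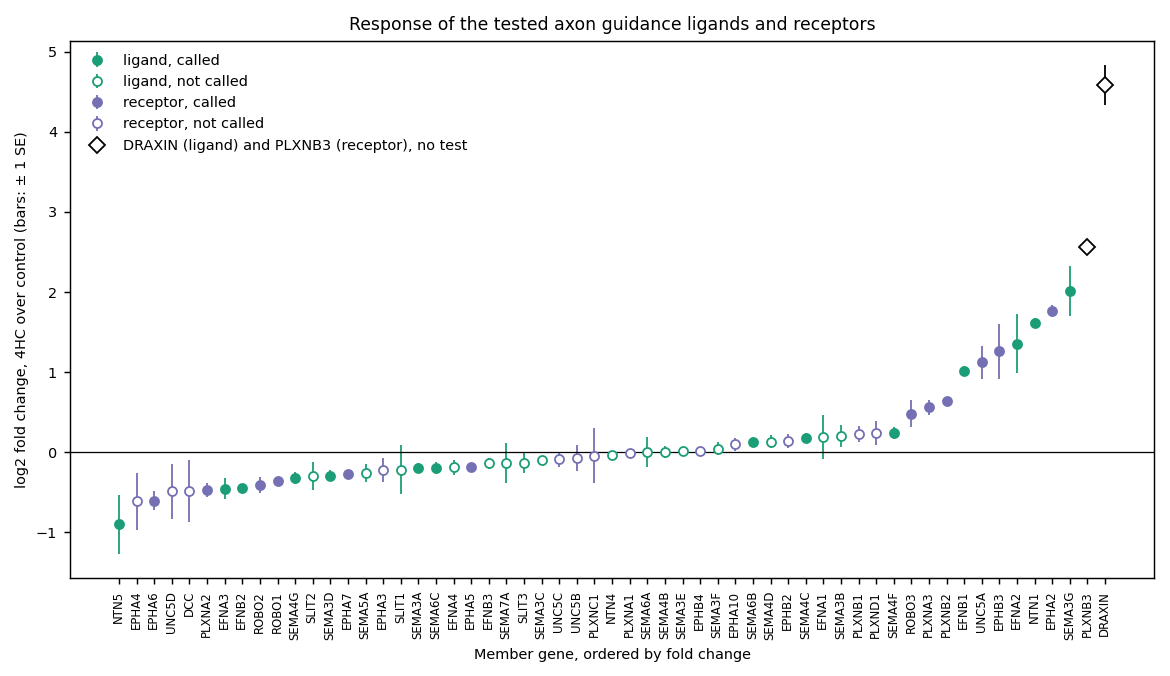
Log2 fold change of 4HC over control for the 57 tested genes, ordered by size, with bars of 1 standard error. Filled points were called, open circles were not, and diamonds are DRAXIN and PLXNB3, which carry no test. The rises reach 4.58, whereas the largest fall is -0.90 in NTN5.

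Among the netrins, NTN1 (NCBI Gene 9423, chr17:9021510-9244000), the secreted netrin that attracts or repels axons depending on the receptor, rose. Its level was 16.6, 17.1 and 15.4 CPM in control and 50.9, 50.6 and 48.4 CPM in 4HC, with a fold change of 3.05 (log2 1.61 ± 0.0629 SE, edgeR adjusted p = 1.62e-27). NTN4 remained the most abundant member, at 714, 713 and 738 CPM in control and 697, 701 and 712 CPM in 4HC, and was not called (edgeR adjusted p = 0.357). NTN5, a low netrin, was at 1.17, 0.923 and 0.664 CPM in control and 0.422, 0.432 and 0.612 CPM in 4HC. Its fall by 0.90 on the log2 scale was just past the threshold (edgeR adjusted p = 0.0491). NTN5 had enough counts for the test only because of its control samples, so these values are a description. The call was lost with DESeq2, with library size as sole scaling, with no filter and with a block for replicate number. It was also lost without control replicate 1 or 2 or 4HC replicate 1 or 2, with adjusted p from 0.0278 to 0.230 over the alternatives. NTN3 was too low to be tested, at 0 to 0.302 CPM. The netrins thus held 1 rise, 1 fall at low level and a sum dominated by NTN4, of 338 to 354 TPM in control and 339.8 to 347 TPM in 4HC.

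Of the 20 semaphorins 17 were tested, 4 were called higher and 4 lower, 23.5% each, beside 19.2% and 17.1% of all genes. SEMA3G, a class 3 semaphorin known from endothelium, had the largest fold, with 0.431, 0.492 and 0.422 CPM in control and 1.63, 2.04 and 1.84 CPM in 4HC. The groups did not overlap and the fold change was 4.03 (log2 2.01 ± 0.311 SE, edgeR adjusted p = 6.21e-07), although at a level of 0.153 TPM in control. Control counts of SEMA3G were 7, 8 and 7. It had enough counts for the test only because of its 4HC samples, so these values are a description. The other rises were small: log2 0.24 in SEMA4F, 0.18 in SEMA4C, a ligand of PLXNB2, and 0.12 in SEMA6B, and in all 3 the groups overlapped. These 3 calls were each lost with DESeq2 and both limma fits, and also without one or more single samples. SEMA4F lost its call without control replicate 3 or 4HC replicate 1 (adjusted p up to 0.0887 over the alternatives, from 8.27e-04). SEMA4C lost it without control replicate 1 or 3 or 4HC replicate 1 or 2 (0.00442 to 0.152), and SEMA6B without control replicate 1 or 3 or 4HC replicate 2 (0.00459 to 0.208).

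The semaphorins that fell did so by 0.20 to 0.32 on the log2 scale. SEMA4G was at 20.6, 22.9 and 20.6 CPM in control and 17.4, 17 and 16.9 CPM in 4HC (log2 -0.32 ± 0.0740 SE, edgeR adjusted p = 4.50e-04). SEMA3D was at 29.3, 25.9 and 25.9 CPM in control and 20.2, 24.1 and 21.9 CPM in 4HC (log2 -0.29 ± 0.0701 SE, edgeR adjusted p = 7.13e-04). Neither gene overlapped between groups. SEMA3A, the classical repellent of sensory axons, fell by 0.20 on the log2 scale (edgeR adjusted p = 0.0100). Its call was lost with DESeq2, with both limma fits and without 4HC replicate 1 (0.00812 to 0.0783 over the alternatives). SEMA6C, a transmembrane semaphorin, also fell by 0.20 (edgeR adjusted p = 0.0375), but its groups overlapped. The SEMA6C call was lost with DESeq2, both limma fits, library size as sole scaling and a block for replicate number. It was also lost without control replicate 1 or 3 or 4HC replicate 1 or 3 (0.0129 to 0.225). SEMA3B, SEMA3C, SEMA3E, SEMA3F, SEMA4B, SEMA4D, SEMA5A, SEMA6A and SEMA7A were not called, with log2 fold changes from -0.26 to 0.21. SEMA4A, SEMA5B and SEMA6D were too low to be tested, the highest value being 1.03 CPM for SEMA4A in 4HC replicate 1. Summed over the family, semaphorin RNA was 196.5 to 200.3 TPM in control and 197 to 203 TPM in 4HC.

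The B-type ephrins, which span the membrane, moved in opposite directions. EFNB1 (NCBI Gene 1947, chrX:68829021-68842160) was at 25.8, 26.4 and 24.5 CPM in control and 53.8, 51.8 and 49.9 CPM in 4HC, with a fold change of 2.03 (log2 1.02 ± 0.0577 SE, edgeR adjusted p = 8.38e-21). EFNB2 (NCBI Gene 1948, chr13:106489745-106535662), the partner of EPHB4 in vessel formation, was at 196, 192 and 200.1 CPM in control and 142, 142 and 145 CPM in 4HC, and fell by 0.45 on the log2 scale (SE 0.0365, edgeR adjusted p = 6.10e-15). In both genes the replicates lay close together and the groups were apart. EFNB3 was at 21.3, 23.9 and 22.9 CPM in control and 19.7, 21.8 and 20.5 CPM in 4HC and was not called (edgeR adjusted p = 0.130). The summed level of the 3 B-type ephrins was 89.1 to 91.6 TPM in control and 84.4 to 85.7 TPM in 4HC.

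Among the A-type ephrins, which are tethered to the membrane by a lipid anchor, EFNA2 rose from 0.493, 0.185 and 0.664 CPM in control to 1.57, 0.987 and 0.918 CPM in 4HC. Its log2 fold change was 1.36 ± 0.371 (SE, edgeR adjusted p = 0.00296), and the call was lost without 4HC replicate 1 (0.00191 to 0.0539 over the alternatives). EFNA2 had enough counts for the test only because of its 4HC samples, so these values are a description. EFNA3 fell, from 8.01, 8.68 and 5.85 CPM in control to 5.31, 5.74 and 5.39 CPM in 4HC (log2 -0.45 ± 0.134 SE, edgeR adjusted p = 0.00602). Its call was lost with DESeq2 and without control replicate 2 (5.58e-04 to 0.0769). EFNA1 and EFNA4 were not called and EFNA5 was too low to be tested. The 3 Slits, large secreted repellents, were not called either, with log2 fold changes from -0.30 to -0.13.

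Of the 9 plexins 8 were tested, and 3 beside PLXNB3 were called, where 36.4% of all genes were called. PLXNB2 (NCBI Gene 23654, chr22:50274979-50307646), a receptor for class 4 semaphorins and the most abundant plexin, was at 156, 168 and 153 CPM in control and 254, 247 and 241 CPM in 4HC, with a fold change of 1.55 (log2 0.64 ± 0.0370 SE, edgeR adjusted p = 2.70e-20). PLXNA3, a receptor for class 3 semaphorins, was at 10.8, 11.9 and 9.23 CPM in control and 16.5, 15.2 and 15.5 CPM in 4HC (log2 0.56 ± 0.0928 SE, edgeR adjusted p = 2.18e-06). It overlaps LAGE3, which had a log2 fold change of 0.38. PLXNA2 went the other way, at 19.1, 15.3 and 17 CPM in control and 12.7, 12.2 and 12.1 CPM in 4HC (log2 -0.47 ± 0.0877 SE, edgeR adjusted p = 2.04e-05). PLXNB1 did not overlap between groups but was not called (log2 0.22, edgeR adjusted p = 0.0799), and PLXNA1, PLXNC1 and PLXND1 were not called. PLXNA4 was too low to be tested. Summed plexin RNA was 58.7 to 62.5 TPM in control and 86.4 to 93.0 TPM in 4HC, and B-type plexins accounted for 42.9 to 45.6 TPM and 70.1 to 75.2 TPM of it. Both sums include PLXNB3, which the rule used, with a mean of 1.25 TPM in control and 7.34 TPM in 4HC.

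UNC5A, one of the UNC5 receptors that mediate repulsion by netrins, was at 1.54, 1.54 and 1.51 CPM in control and 3.32, 3.33 and 3.37 CPM in 4HC, with a fold change of 2.18 (log2 1.12 ± 0.203 SE, edgeR adjusted p = 1.20e-05). UNC5B, UNC5C, UNC5D and DCC were not called, with log2 fold changes from -0.49 to -0.07. UNC5C was the highest of the 4 UNC5 receptors in control, at 12.9, 13.3 and 13.3 CPM, or 2.22 TPM.

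The Robo receptors, an immunoglobulin-like family that includes receptors of Slits, differed in direction. ROBO1 (NCBI Gene 6091, chr3:78597239-79767998) was at 876, 888 and 885 CPM in control and 687, 669 and 711 CPM in 4HC, a fall by 0.36 on the log2 scale (SE 0.0305, edgeR adjusted p = 3.58e-14). ROBO2 was at 12.8, 11.9 and 12 CPM in control and 9.42, 8.45 and 9.79 CPM in 4HC (log2 -0.41 ± 0.0985 SE, edgeR adjusted p = 7.95e-04). Neither of these overlapped between groups. ROBO3, which interferes with Slit repulsion in crossing axons, was at 3.82, 3.51 and 2.65 CPM in control and 3.98, 5.67 and 4.28 CPM in 4HC (log2 0.48 ± 0.169 SE, edgeR adjusted p = 0.0213). Its call was lost with DESeq2, and without control replicate 3 (log2 0.34) or 4HC replicate 2 (log2 0.31), with adjusted p from 0.0130 to 0.222 over the alternatives. ROBO1 held most of the family sum, which was 206 to 208 TPM in control and 159 to 167 TPM in 4HC.

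Of the 14 Eph receptors, the largest family of receptor tyrosine kinases, 10 were tested. Of these, 2 were called higher and 3 lower, beside 19.2% and 17.1% of all genes. EPHA2 (NCBI Gene 1969, chr1:16124337-16156104), which is widespread in epithelia, was at 9.37, 11 and 11.1 CPM in control and 34.5, 34.7 and 37.6 CPM in 4HC, with a fold change of 3.39 (log2 1.76 ± 0.0753 SE, edgeR adjusted p = 5.64e-26). EPHB3 rose at a low level, from 0.616, 0.308 and 0.543 CPM in control to 1.27, 0.925 and 1.35 CPM in 4HC (log2 1.26 ± 0.346 SE, edgeR adjusted p = 0.00318). With DESeq2 its adjusted p was 0.0502, within 0.00278 to 0.0502 over the alternatives. EPHB3 had enough counts for the test only because of its 4HC samples, so these values are a description.

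The 3 Eph receptors that fell were of the A type and included the most abundant ones. EPHA7 was at 525, 492 and 507 CPM in control and 401, 428 and 433 CPM in 4HC (log2 -0.27 ± 0.0333 SE, edgeR adjusted p = 2.11e-09). EPHA5 was at 314, 316 and 315 CPM in control and 265, 279 and 289.9 CPM in 4HC (log2 -0.18 ± 0.0343 SE, edgeR adjusted p = 2.70e-05). EPHA6 was at 10.8, 9.48 and 8.08 CPM in control and 5.85, 6.54 and 6.24 CPM in 4HC (log2 -0.60 ± 0.120 SE, edgeR adjusted p = 5.79e-05). None of the 3 overlapped between groups. EPHA3, EPHA4, EPHA10, EPHB2 and EPHB4 were not called, and EPHB4, the receptor of EFNB2, was at 82.8, 83.6 and 80.5 CPM in control and 85.0, 83.4 and 81.5 CPM in 4HC. EPHA1, EPHA8, EPHB1 and EPHB6 were too low to be tested. Summed Eph receptor RNA was 272 to 285 TPM in control and 241 to 255 TPM in 4HC.

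**Figure D3:**
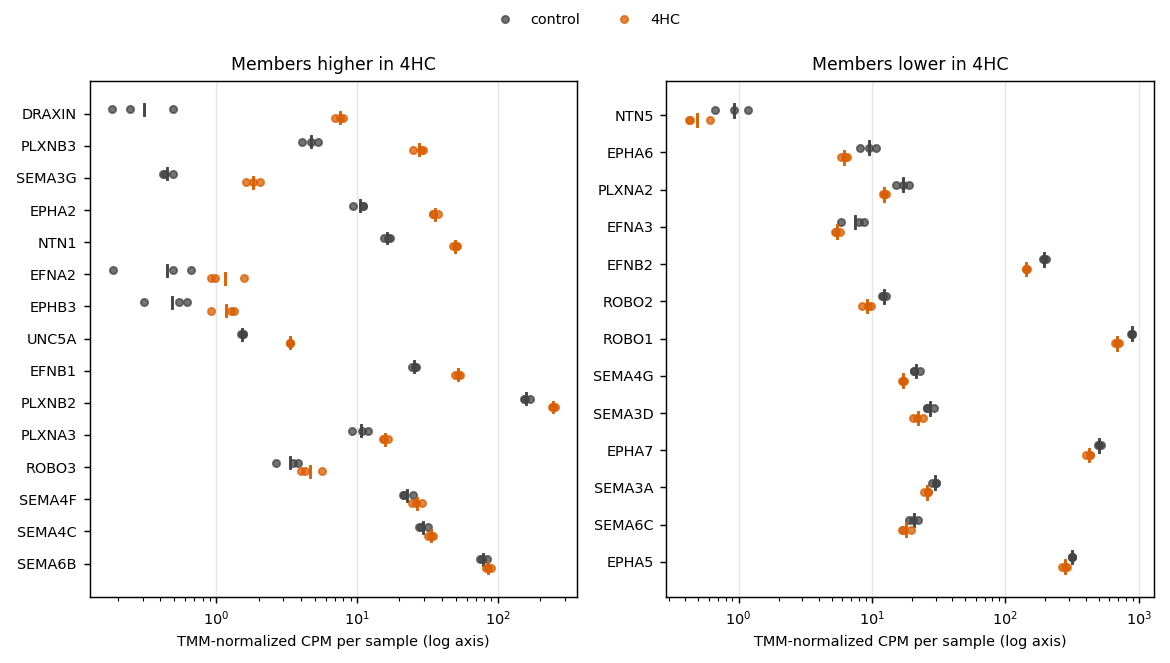
CPM of each sample (points, log axis) and group mean (vertical ticks) for the members that were higher (left) or lower (right) in 4HC, ordered by fold change. DRAXIN and PLXNB3 are shown without a test, and the groups overlap in SEMA4F, SEMA4C, SEMA6B and SEMA6C.

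The position of the members along the range of gene lengths was compared with their response, because the rule did not use it. The genomic span, from first to last annotated base, was known for 56 of the 57 tested members. Leaving DRAXIN and PLXNB3 aside, members called higher had a median span of 31.8 kb and those called lower one of 249 kb. Over all tested genes the medians were 29.9 kb and 39.7 kb, in the same direction. Under 50 kb, 9 of 22 members were higher and 5 were lower, beside 1464 of 7007 genes higher and 1148 lower. At 200 kb or more, 1 of 18 was higher (NTN1) and 7 were lower. For all tested genes with a known span, 112 of 1022 were higher and 204 lower at 200 kb or more. Spearman's rank correlation of span with log2 fold change was -0.45 over the 56 members (Pearson's r with the log10 of the span -0.33) and -0.098 over 11659 genes (Pearson's r -0.097). Without DRAXIN and PLXNB3 it was -0.44 over 54 members. These are descriptions across genes of the same 6 samples, which are not independent replicates.

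**Figure D4:**
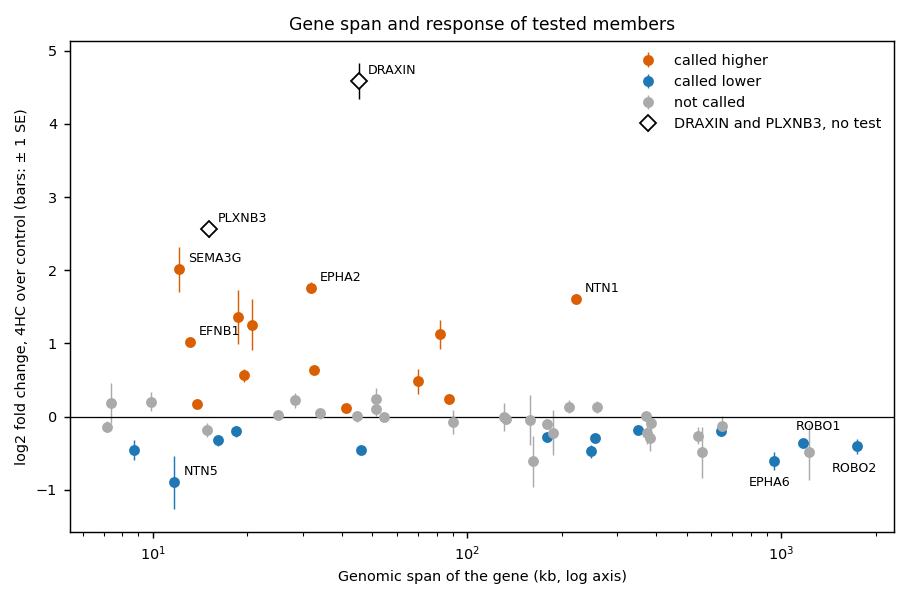
Log2 fold change of 4HC over control against genomic span (kb, log axis) for the 56 tested members with a known span, with bars of 1 standard error and colours for the call. NTN1 is the 1 higher member at 200 kb or more, and ROBO1, ROBO2 and EPHA6 lie at the long end with falls.

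Genes that work with these ligands and receptors were described from 2 lists. Of 28 co-receptors and related cues, 21 were tested, 4 were called higher and 3 lower. RGMA, a repulsive ligand of NEO1, was at 4.01, 4.55 and 4.52 CPM in control and 13.9, 12.5 and 11.5 CPM in 4HC (log2 1.54 ± 0.119 SE, edgeR adjusted p = 1.19e-15). FLRT1, an adhesion protein, had a log2 fold change of 0.78 that was 0.44 without 4HC replicate 3. Its call was lost with DESeq2 and both limma fits, and without control replicate 2 or 3 or 4HC replicate 3 (adjusted p from 0.00715 to 0.280). SMO, which carries hedgehog signals across the membrane, was also higher (log2 0.25). PTCH1, the hedgehog receptor, was at 205, 208 and 203 CPM in control and 156, 149.9 and 153 CPM in 4HC (log2 -0.43, edgeR adjusted p = 3.12e-14), and the co-receptor CDON was lower too (-0.23). The remaining calls, named after their values were seen, were ERBB2 (0.16) and LRP6 (-0.13). The number of higher calls was 2 without control replicate 3.

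Of 62 intracellular effectors 54 were tested, 9 were called higher and 10 lower. DPYSL4, a collapsin response mediator of semaphorin signals, was at 15.9, 15.8 and 14.8 CPM in control and 34.3, 31.3 and 31.3 CPM in 4HC (log2 1.06 ± 0.0694 SE, edgeR adjusted p = 2.22e-18). Its relative DPYSL2 rose by 0.46 on the log2 scale. VAV2, a guanine nucleotide exchange factor, rose by 0.34 (edgeR adjusted p = 2.81e-04) and LIMK2, a kinase of the actin regulator cofilin, by 0.32 (edgeR adjusted p = 9.10e-04). SH3BP1 had a log2 fold change of 1.02 at under 1 CPM in every sample, and its call was lost without control replicate 2 or 3 or 4HC replicate 1 or 2 (adjusted p from 0.0279 to 0.211).

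The deposited annotation placed 179 genes in the KEGG axon guidance pathway, 64 of them members. Of the other 115, 97 were tested, 16 were called higher and 10 lower. WNT4, a secreted Wnt ligand, had the largest fold, with 0.308, 0.369 and 0.241 CPM in control and 1.75, 1.91 and 1.10 CPM in 4HC (log2 2.35 ± 0.363 SE, edgeR adjusted p = 6.10e-07). The control level of WNT4 was near the floor. It had enough counts for the test only because of its 4HC samples, so these values are a description. PARD6G, a cell polarity protein, was at 16.5, 16.1 and 17 CPM in control and 38.9, 38.2 and 40.0 CPM in 4HC (log2 1.24 ± 0.0644 SE, edgeR adjusted p = 2.84e-22), and its relative PARD6A rose by 0.60 on the log2 scale (edgeR adjusted p = 1.65e-04). GDF7, a bone morphogenetic protein, had a log2 fold change of 0.95 at under 1 CPM in every sample (edgeR adjusted p = 0.0440), and its call was lost when any single sample but control replicate 3 was left out (0.0396 to 0.389 over the alternatives). RGMA also belongs to this pathway. The shares called in these lists stand beside 19.2% of all genes called higher and 17.1% lower.

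Markers of other cell types were followed beside these changes. Of 16 neuronal markers 9 were tested and 3 (33.3%) were called with edgeR, beside 36.4% of all genes. All 3 were lower (17.1% of all genes), namely STMN2 (log2 -0.49), MAP2 (-0.28) and TUBB3 (-0.26). The summed level of the neuronal markers was 208 to 214 TPM in control and 159.8 to 166 TPM in 4HC. Of 10 stromal and endothelial markers 6 were tested, and TEK alone was called (log2 -0.22), which is 16.7% of those tested. The summed level of this list was 159.3 to 169.98 TPM in control and 157 to 159 TPM in 4HC. The tested granulosa markers AMH (log2 0.03), INHA (-0.38) and HSD17B1 (-0.01) were not called by edgeR, with adjusted p from 0.451 to 0.962. The part of these markers in the changes of the guidance genes was not tested.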

How the data were processed

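RNA-seq of COV434 cells was analysed for 3 control and 3 4HC samples, grouped by their labels. Per the labels, reads were filtered with SOAPnuke and processed on the Dr. Tom system, and the submitters' processing notes name HISAT2, Bowtie2, RSEM 1.3.1, DESeq2 1.4.5 and the build GRCh38.p13. The authors deposited an expected count per gene and transcript, without normalization, of which 85.5% were whole numbers. They also deposited TPM values, scaled to transcript length and library, and FPKM values, scaled to gene length and library. The deposited columns of fold changes, p-values and q-values of the authors' comparison were not used, nor was the strand column. No column was without a sample.

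Rounded expected counts entered edgeR 4.0.16 (R 4.3.3; TMM, filterByExpr, quasi-likelihood test, no term but condition), with Benjamini-Hochberg adjustment over 12368 genes. CPM are TMM-normalized. TPM were used for levels between genes. The test was checked on simulated counts first. With 3 samples per group exact permutation could not reach below p = 0.1, so single genes rest on the spread shared across genes. Each SE is the absolute log2 fold change divided by the square root of the quasi-likelihood F statistic. It thus restates the test and is not a spread of the 3 replicates. The figure bars of DRAXIN and PLXNB3 were derived the same way and are a description. Other settings tried were library size as sole scaling, size factors of DESeq2 within edgeR, DESeq2 1.42.0 itself, no filter, a minimum of 10 counts per sample, a replicate block, limma 3.58.1 on log2(TPM + 1) or log2(TPM + 0.1), FPKM in place of TPM for levels, and leaving out single samples.

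The members and lists were chosen with earlier results of these data known. Named are DRAXIN and PLXNB3, every called member, the 5 highest members in control by TPM, up to 5 called genes of each list by size of change, and markers as counts and ranges with the defining ones named. Fewer counts limit a value: 0 counts in a sample allow up to 3. Promoter windows of RefSeq (GRCh38.p14) were trimmed to stretches without exons of GENCODE release 29. Python 3.11.15, pandas 2.3.3 and matplotlib 3.10.9 were used for tables and figures.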

Additional observations from a re-analysis of the deposited data

How the results depend on the processing

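Directions held throughout: 0 of 401 values of the 29 named members under the alternatives changed sign. Of the 26 called members beside DRAXIN and PLXNB3, 16 kept their call under every alternative that tested them and 10 lost it under at least 1 (EFNA2, EFNA3, EPHB3, NTN5, ROBO3, SEMA3A, SEMA4C, SEMA4F, SEMA6B and SEMA6C). All of these 10 but EFNA2 lost it with DESeq2, the method of the study. SEMA3A, SEMA4C, SEMA4F, SEMA6B and SEMA6C also lost it with both limma fits. Counting DRAXIN and PLXNB3 among the higher ones (15 in all), members called higher numbered 10 to 16 and members called lower 9 to 14 over the alternatives that kept all samples, and 11 to 17 and 10 to 15 when single samples were left out. Of the co-receptors and related cues, 7 were called, against 4 with DESeq2, 4 with limma on log2(TPM + 1) and 3 with limma on log2(TPM + 0.1); with each sample left out the count was 5 to 6. The cause was not tested. DRAXIN had a log2 fold change of 1.31 on log2(TPM + 1) and 3.09 on log2(TPM + 0.1), and PLXNB3 one of 1.89 on log2(TPM + 1), scales that by construction shrink low values. The median log2 fold change of the members was between -0.05 and -0.01 throughout. With the replicate number as a block, 15 members, DRAXIN and PLXNB3 included, were called higher and 11 lower. NTN5 (adjusted p = 0.0766) and SEMA6C (0.0644) then lost their calls, as did the list genes GDF7 (0.0649) and SH3BP1 (0.0617). Deviations of same-numbered samples correlated weakly (0.0087, 0.069 and 0.030), and those of differently numbered samples at -0.080 to 0.045. With 3 samples per group these values cannot decide whether the numbers pair the samples. Members at or above 1 of the unit in control numbered 42 in TPM and 36 in FPKM. Depth limits members near 1 CPM and below, where a few counts decide the fold.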
